A study of Rattus norvegicus with 35 samples.

Results

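The genes described here are the nuclear-encoded subunits of the oxidative phosphorylation machinery in rat liver, with the assembly factors that share their name prefixes. They were taken by name: every probe set of the array with 1 gene symbol starting with Ndufa, Ndufb, Ndufc, Ndufs, Ndufv, Sdha to Sdhd, Uqcr, Cox4 to Cox8, Atp5f, Atp5m or Atp5p, and for each gene the probe set with the highest mean over all arrays. This gave 89 genes of 14217 with 1 symbol on the array, covered by 98 of the 31042 probe sets tested. By complex they were 36 genes of complex I, 6 complex I assembly factors (the Ndufaf genes), 4 of complex II, 4 complex II assembly factors (the Sdhaf genes), 7 of complex III, 17 of complex IV and 15 of complex V. The complex IV set holds Cox6c-ps1, whose symbol marks a pseudogene, and Cox4i2, Cox6a2, Cox6b2, Cox7a1, Cox7b2 and Cox8b. Their mean values over all arrays were -0.278 to 0.030, and they enter every complex IV mean, median and count below. The rule itself uses no measured difference, but it was set with earlier results of these data known. No filter on low values was applied, so all 89 were tested. A further 7 probe sets carried a symbol of this family together with that of a second, mostly similarly named, gene and were left out; they hold the symbols Cox7a2, Uqcrb, Ndufs5, Ndufa10, Atp5mc1 and Atp5mc2.

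The study hybridised liver RNA of individual Wistar Han IGS rats fed 1 of 3 triazole antifungals, myclobutanil, propiconazole or triadimefon, to Affymetrix rat expression arrays. Triazoles block fungal sterol synthesis at a cytochrome P450 enzyme. The animals were exposed by diet, starting at gestation day 6 and ending at postnatal day 92. The groups were controls at 0 ppm (7 arrays), myclobutanil at 500 ppm (5) and 2000 ppm (4), propiconazole at 500 ppm (3) and 2500 ppm (4), and triadimefon at 500 ppm (5) and 1800 ppm (4), each array from 1 animal. Of 35 arrays listed, 32 were used; values of myclobutanil 2000 ppm replicate 1 and propiconazole 500 ppm replicates 3 and 4 were not analysed here. Sex and litter are not given in the labels, so littermates may be counted as separate animals. One protocol names testis while the titles name liver. All 11 hepatocyte markers measured (albumin, transthyretin, apolipoproteins and others) had group mean scores above 1 in every group, and their mean over the list was 3.59 to 5.95 on single arrays. Of 9 testis germ cell markers, at most 1 had a group mean above 1 in any group. Their mean over the list was -0.14 to 0.849 on single arrays, with a median of 0.214. The highest array reached 0.849 at myclobutanil 2000 ppm, 0.785 at myclobutanil 500 ppm, 0.759 at triadimefon 1800 ppm and 0.659 at triadimefon 500 ppm. The source of these higher values was not tested. The values are the authors' deposited scores, centred near 0, whose scale and log base are not stated, so every difference below is a score difference and not a fold change. Scores of different genes are not read as levels of expression against each other, since each probe set has its own response.

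Mitochondria make most of a hepatocyte's ATP by passing electrons from NADH (complex I) and succinate (complex II) through coenzyme Q to complex III, cytochrome c and complex IV, where oxygen is reduced. Complexes I, III and IV pump protons, and complex V, the ATP synthase, uses the gradient. Complex II is the exception in that it pumps none, holds no mitochondrially encoded subunit and is also an enzyme of the tricarboxylic acid cycle.

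No member passed the test between any treated group and control, and 11 of 89 passed it between the 2 triadimefon levels, all higher at 1800 ppm. Before those values, the arrays themselves need a description. The difference between the 3' and 5' probe sets of the array's GAPDH and β-actin controls, a reading of how far the labelled RNA covers a transcript, ran from 0.469 to 2.45. By the GAPDH part of it, 9 arrays lay above 0.9: replicates 2 to 4 of triadimefon 1800 ppm, replicates 4 to 7 of the controls, and replicates 1 and 5 of myclobutanil 500 ppm. The mean score over the 89 members was 2.2 to 3.24 (median 2.51) on these 9 arrays and 1.81 to 2.25 (median 2.09) on the other 23. Of the 89 members, 84 had a higher mean on the 9 arrays, and the gap was widest for Atp5f1e (1.20), Ndufb7 (1.16) and Ndufb5 (1.11). The gaps were 0.194 to 0.392 for the 4 complex II genes. Some genes of other complexes had smaller ones, such as Uqcrc2 (0.0302), Uqcrfs1 (0.0595) and Atp5f1a (0.0635). Ndufb8, an accessory subunit of complex I, went the other way, at 0.631 on the 9 arrays and 0.891 on the others. The myclobutanil 2000 ppm, propiconazole and triadimefon 500 ppm groups held none of the 9 arrays, so this reading moves with the groups, and its part in the differences below was not tested apart from the fits named. Controls 5 to 7 and triadimefon 1800 ppm replicates 2 to 4 also bear animal numbers above 3000, a series that no other array shares.

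**Figure D1:**
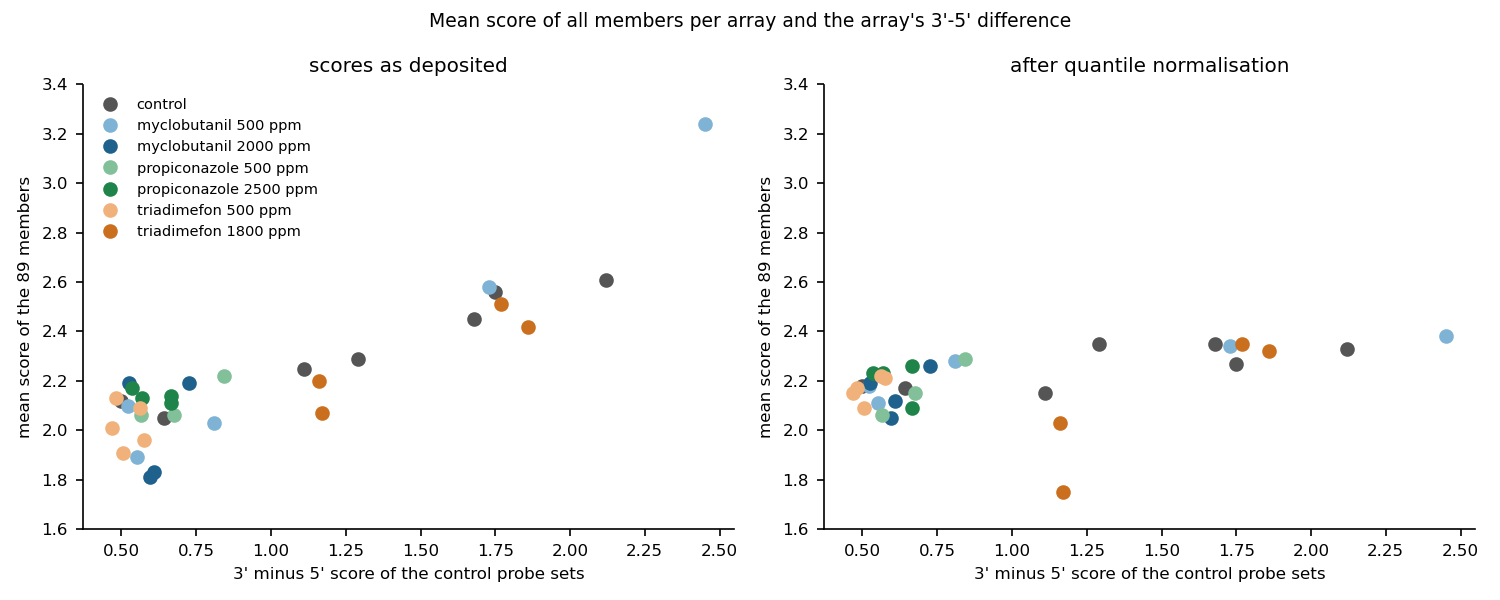
Each point is 1 array; the x axis gives the mean 3' minus 5' score of the GAPDH and β-actin control probe sets, the y axis the mean score of the 89 members, as deposited (left) and after quantile normalisation (right). On the left the array at 2.45, myclobutanil 500 ppm replicate 1, has the highest member mean of 3.24; on the right triadimefon 1800 ppm replicate 1 has the lowest, 1.75.

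Single arrays set the extremes for many members at once. Myclobutanil 500 ppm replicate 1 held the highest score of 67 of the 89 members, among them all 7 of complex III, 31 of 36 of complex I and 13 of 15 of complex V. It also had the widest spread of scores over all probe sets, an SD of 1.02 against 0.701 to 0.915 on the other arrays. After quantile normalisation, which gives every array the same distribution, it was highest for 24. Myclobutanil 2000 ppm replicates 3 and 2 held the lowest scores of 23 and 18 members, and 4 and 1 after quantile normalisation.

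In each of the 5 complexes the 3 highest group means were those of controls, myclobutanil 500 ppm and triadimefon 1800 ppm, the groups that hold the 9 arrays. For complex I, the NADH dehydrogenase, the mean over its 36 members was 2.49 ± 0.241 (SD, n = 7) in controls, 2.52 ± 0.582 (n = 5) and 2.10 ± 0.234 (n = 4) at the low and high level of myclobutanil, 2.24 ± 0.142 (n = 3) and 2.26 ± 0.0245 (n = 4) for propiconazole, and 2.13 ± 0.086 (n = 5) and 2.41 ± 0.265 (n = 4) for triadimefon. The myclobutanil 500 ppm group was the most variable and propiconazole 2500 ppm the least. For complex II, succinate dehydrogenase, controls stood at 2.87 ± 0.0791 and triadimefon 1800 ppm at 3.16 ± 0.357, the highest group mean. Complex III, the cytochrome bc complex, gave 3.00 ± 0.277 in controls and 2.61 ± 0.132 at triadimefon 500 ppm. Complex IV, cytochrome c oxidase, gave 1.71 ± 0.158 and 1.49 ± 0.0856 in the same groups, and complex V gave 3.20 ± 0.293 and 2.80 ± 0.145. The single arrays overlapped between these 2 groups in all 5 complexes; in complex I controls ran from 2.17 to 2.78 and triadimefon 500 ppm from 2.02 to 2.23.

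**Figure D2:**
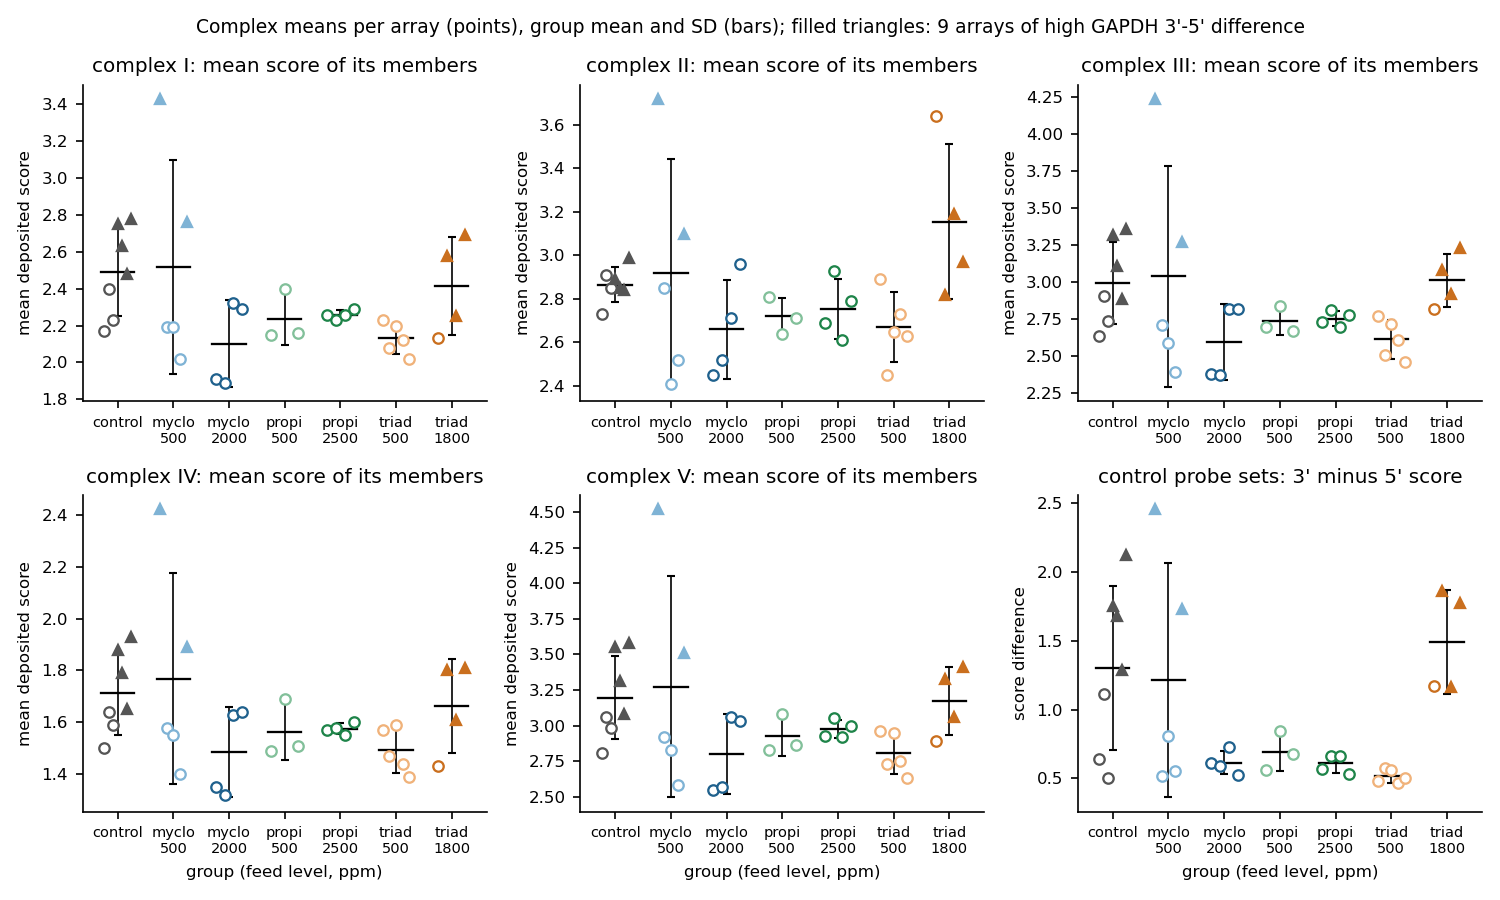
Points are arrays, horizontal lines and bars the group mean and SD; the y axis gives the mean deposited score of the complex's members, and the last panel the 3' minus 5' score of the control probe sets. Filled triangles mark the 9 arrays whose GAPDH difference exceeds 0.9. In complexes I, IV and V the triangles lie above the open points of their group, some only just. In complex III they do so except for control replicate 6, at 2.89 below the open control replicate 2 at 2.91. In complex II the open point of triadimefon 1800 ppm (replicate 1, 3.64) is the highest of its group.

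The first question of the design is whether either level of each compound changed the liver transcript scores of these genes against control. With limma and Benjamini-Hochberg adjustment over all probe sets, 0 of 89 members passed an adjusted p of 0.05 in each of the 6 comparisons, which all share the 7 control arrays. The background was low as well: the share of all probe sets past that threshold was 0% at myclobutanil 500 ppm, 0.0644% at myclobutanil 2000 ppm, 0% at propiconazole 500 ppm, 0.254% at propiconazole 2500 ppm, 0.00966% at triadimefon 500 ppm and 1.17% at triadimefon 1800 ppm. At an unadjusted p under 0.05 the members past it numbered 0, 30, 3, 4, 25 and 1 in that order, beside 4.13%, 24.2%, 9.23%, 19.9%, 29.3% and 10.8% of all probe sets. The 30 members at myclobutanil 2000 ppm are 33.7% of the family, above the background share, and the 25 at triadimefon 500 ppm are 28.1%, close to it. The counts at both propiconazole levels and at triadimefon 1800 ppm are below it (3.37%, 4.49% and 1.12%).

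The members' differences leaned below 0 in 4 of the 6 comparisons. At myclobutanil 2000 ppm the median member difference from control was -0.334, with 84 of 89 below 0 (70.7% of all probe sets were). At triadimefon 500 ppm it was -0.313 with 82 below 0 (background 76.1%), at propiconazole 500 ppm -0.200 with 83 (68.2%), and at propiconazole 2500 ppm -0.154 with 81 (71.8%). Myclobutanil 500 ppm gave 0.0419 with 24 below 0 (53.1%), and triadimefon 1800 ppm -0.0104 with 47 below 0 (34.3%). The medians over all probe sets lay between -0.0438 and 0.0185. That background is of unlike level: the median score of a whole array was 0.00531 to 0.0585, and the member mean 1.81 to 3.24. The 4 groups with the low medians are the ones without an array of high GAPDH 3'-5' difference. When the fit held the 3'-5' difference as covariate, their medians, in the order just given, were 0.000378, 0.0608, 0.0717 and 0.142, and after quantile normalisation -0.0904, -0.0606, -0.0714 and -0.0206. The medians over complex II, below 0 in these 4 groups on the deposited scores, lay above 0 after quantile normalisation, at 0.0672 for myclobutanil 2000 ppm and 0.0683 for triadimefon 500 ppm. In bulk tissue, fewer cells of a type and less RNA per cell cannot be told apart.

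**Figure D3:**
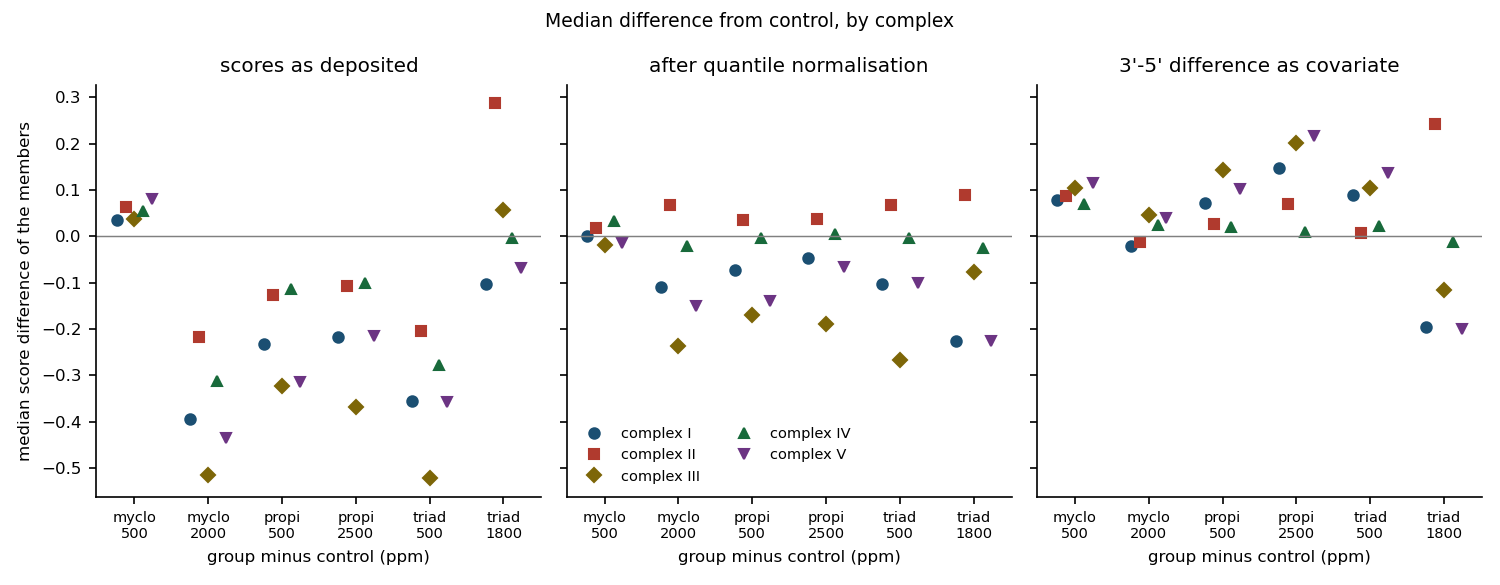
The y axis gives the median score difference from control over the members of complexes I to V (symbols), for each treated group (x axis), in 3 settings: scores as deposited, after quantile normalisation, and with a 3'-5' covariate. On the deposited scores all 5 complexes lie below 0 in 4 groups, complex III at -0.515 and -0.521 in the lowest; with the covariate these 4 groups lie between -0.0209 and 0.217, and complex II at triadimefon 1800 ppm is at 0.242.

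Among the members closest to the threshold against control were Cox7a2l, which helps join complexes III and IV into supercomplexes, Cox5a, a matrix-side subunit of complex IV, and the complex I accessory subunits Ndufb7 and Ndufb10. In controls Cox7a2l scored 1.89 at the lowest, 2.31 at the median and 2.62 at the highest, against 1.97, 1.81, 1.83, 1.87 and 1.76 in the triadimefon 500 ppm arrays. Of the 5, 4 lay below every control and replicate 1 within the control range. The difference was -0.473 ± 0.15 (SE), adjusted p = 0.0789 by limma. In the same comparison Cox5a had 0.572, 1.12 and 1.82 as lowest, median and highest control, and 0.517 to 0.651 in the 5 treated arrays (median 0.600), a difference of -0.516 ± 0.17 (adjusted p = 0.0837 by limma). Control replicates 1 and 3, at 0.572 and 0.578, sat among the treated arrays, and these 2 have the lowest 3'-5' differences of the controls. Ndufb7 was the 1 member whose ranges did not overlap (2.2% of probe sets lay wholly below control): 1.97, 1.88, 2.05, 1.95 and 1.89 against 2.06 at the lowest control, 2.95 at the median and 3.46 at the highest. Its difference was -0.844 ± 0.314, adjusted p = 0.1 by limma, and with the 3'-5' covariate it was 0.0418 (adjusted p = 1), so its sign depended on that choice.

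At myclobutanil 2000 ppm the smallest p belonged to Ndufb10, an accessory subunit with paired cysteines facing the intermembrane space. It scored 1.78, 1.78, 2.16 and 2.23 against a control range of 2.11 to 2.40, so replicates 2 and 3 lay below the controls and replicates 4 and 5 among them. The difference was -0.29 ± 0.0972 (adjusted p = 0.108 by limma). Cox7a2l and Cox5a followed at -0.461 ± 0.16 and -0.521 ± 0.182, both with adjusted p = 0.115. Without control replicate 3, 4 members (4.49%) passed the threshold as lower at myclobutanil 2000 ppm, beside 8.32% of all probe sets, and 6 (6.74%) at triadimefon 500 ppm, beside 12.1%. Without control replicate 1, 3 (3.37%) did so at triadimefon 500 ppm, beside 10.2%. Without the 2 arrays doubted after the data were seen, myclobutanil 500 ppm replicate 1 and triadimefon 1800 ppm replicate 1, the counts were 11 (12.4%, beside 5.9% of all probe sets lower) and 22 (24.7%, beside 11.7%), all lower. These 2 arrays belong to neither comparison and enter only through the shared estimate of spread.

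With propiconazole the members nearest the threshold again included Cox5a, at both levels, and Cox7a2l, at the high level. Assembly factors were among them at both. At 2500 ppm Cox5a scored 0.623, 0.624, 0.562 and 0.612, all below the control median, a difference of -0.506 ± 0.182 (adjusted p = 0.156 by limma). Cox7a2l was at -0.384 ± 0.16 (adjusted p = 0.196) and Ndufaf1, a chaperone of complex I assembly with a score near 0, at -0.122 ± 0.0507 (adjusted p = 0.193). At 500 ppm Ndufaf7, the methyltransferase that modifies a core complex I subunit, scored 0.289, 0.135 and 0.278 beside a control median of 0.375, a difference of -0.141 ± 0.0593 (adjusted p = 0.536 by limma). Cox5a and Ndufaf1 came next at 500 ppm. Their means there were 0.671 and 0.0869, beside 1.112 and 0.203 in controls. Atp5pf, a stalk subunit of the ATP synthase, was the 1 member wholly below controls there, at 2.06, 2.02 and 2.05 against 2.09 to 2.72; 1.56% of probe sets were so placed, and its adjusted p was 0.602.

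Triadimefon at 1800 ppm gave another order. The 3 smallest p were those of Ndufaf7 (0.112 ± 0.0538, adjusted p = 0.452 by limma), Ndufv3, an accessory subunit beside the flavoprotein of complex I (-0.281 ± 0.149, adjusted p = 0.528), and Sdha, the FAD-binding catalytic subunit of complex II (0.307 ± 0.169, adjusted p = 0.555). Ndufv3 scored 1.96 and 1.93 in replicates 1 and 3 but 2.51 and 2.46 in replicates 2 and 4, the latter inside the control range of 2.30 to 2.65. At myclobutanil 500 ppm the smallest p belonged to Cox7b2, Ndufa4l2 and Cox7a1, isoforms whose scores lie near 0, with differences of 0.149 ± 0.0915, -0.0374 ± 0.0236 and 0.0552 ± 0.0396 and adjusted p = 1 each.

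The second question is whether the high level of a compound differed from its low level. For myclobutanil, 0 of 89 members passed the test between 2000 and 500 ppm (0% of all probe sets), and 25 had an unadjusted p under 0.05 (28.1%, beside 11% of all probe sets). The median member difference was -0.379 with 86 of 89 below 0 (73.2% of all probe sets were). The members of smallest p were Ndufb11, Cox6a1 and Ndufb7 (adjusted p = 0.447 each by limma). Ndufb11, a membrane-arm subunit of complex I, scored 3.60, 2.62, 2.65, 2.45 and 3.09 at 500 ppm and 2.24, 2.24, 2.77 and 2.73 at 2000 ppm. The 2 highest values were those of replicates 1 and 5, both among the 9 arrays of high GAPDH difference, and the other 3 overlapped the high level. For propiconazole, 0 members passed between 2500 and 500 ppm (0% of probe sets), and none had an unadjusted p under 0.05 (1.18% of probe sets). Its median member difference was 0.0334, the members ranging from -0.107 to 0.166.

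For triadimefon, 11 of 89 members passed the test between 1800 and 500 ppm, or 12.4%, all higher at 1800 ppm. The background was larger: 24.8% of all probe sets passed, 22.3% higher and 2.46% lower, so the members' share called is below that of the array as a whole. At an unadjusted p under 0.05 there were 30 members (33.7%, beside 41.1%), 79 of 89 differences lay above 0 (78.3% of probe sets), and 20 members had all 4 arrays at 1800 ppm above all 5 at 500 ppm (22.5%, beside 21.8%). The median member difference was 0.247, beside 0.0635 over all probe sets, which score near 0 at the median and are of unlike level. The SD over an array's probe sets averaged 0.852 at 1800 ppm and 0.747 at 500 ppm. Hepatocyte markers, also of high score, had a median difference of 0.661. Higher members were Ndufv1, Ndufa9 and Ndufs7 in complex I, Sdha and Sdhd in complex II, Uqcrc1 in complex III, Cox5a and Cox7a2l in complex IV, Atp5f1b in complex V, and the assembly factors Ndufaf3 and Ndufaf7.

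Cox7a2l had the smallest p. Its scores at 1800 ppm were 2.48, 2.43, 2.50 and 2.58, above the 1.97, 1.81, 1.83, 1.87 and 1.76 at 500 ppm and within the upper part of the control range. The difference was 0.653 ± 0.172 (SE), adjusted p = 0.0119 by limma. Uqcrc1, a core protein of complex III, had the largest difference of the 11, 0.898 ± 0.268 (adjusted p = 0.0204). It scored 3.59, 3.18, 2.79 and 3.28 at 1800 ppm against 2.42, 2.22, 2.36, 2.31 and 2.25 at 500 ppm, while controls spanned 2.41 to 3.43. These 2 genes were also the only ones of the 11 past the threshold after quantile normalisation, at 0.297 ± 0.0837 for Cox7a2l and 0.46 ± 0.115 for Uqcrc1.

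In complex I, Ndufv1, which binds NADH and the flavin, scored 3.27, 2.31, 2.37 and 2.52 at 1800 ppm and 1.95 to 2.18 at 500 ppm, a difference of 0.552 ± 0.163 (adjusted p = 0.0194 by limma). Ndufa9, an accessory subunit at the junction of the arms, scored 3.06, 2.20, 2.32 and 2.43 against 1.88 to 2.20 (0.483 ± 0.157, adjusted p = 0.0292); replicate 2 at 1800 ppm all but touched the top of the low level. Ndufs7, which carries the last iron-sulfur cluster before coenzyme Q, scored 3.29, 3.02, 2.74 and 3.23 against 2.26 to 2.54 (0.664 ± 0.239, adjusted p = 0.0436). In all 3 genes replicate 1 was the highest array of its group. Among the assembly factors, Ndufaf7 scored 0.434, 0.534, 0.460 and 0.520 against 0.183 to 0.381 (0.198 ± 0.0576, adjusted p = 0.0184), and Ndufaf3 scored 1.57, 1.34, 1.26 and 1.49 against 1.06 to 1.32 (0.216 ± 0.0715, adjusted p = 0.0312). Only Ndufaf3 of these overlapped between levels.

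In complex II, Sdha scored 3.58, 2.72, 3.17 and 2.78 at 1800 ppm and 2.73, 2.41, 2.62, 2.55 and 2.56 at 500 ppm (0.488 ± 0.181, adjusted p = 0.0485 by limma). Sdhd, a membrane anchor, scored 3.52, 3.01, 3.39 and 3.17 against 2.53 to 3.01 (0.506 ± 0.182, adjusted p = 0.0437). The other 2 genes narrowly missed the threshold: Sdhb, the iron-sulfur subunit, at 0.42 ± 0.167 (adjusted p = 0.0641) and Sdhc, the other anchor, at 0.524 ± 0.2 (adjusted p = 0.055). The second probe set of Sdhd gave -0.13 ± 0.143 (adjusted p = 0.497), so the probe sets of this gene disagree. Cox5a scored 0.976, 1.27, 1.26 and 1.30 against 0.517 to 0.651 (0.607 ± 0.194, adjusted p = 0.0273), and its probe set shared with a second symbol gave 0.573 ± 0.258 (adjusted p = 0.0963). Atp5f1b, the catalytic β subunit of the ATP synthase, scored 5.34, 3.81, 4.43 and 3.92 against 3.46 to 3.84 (0.762 ± 0.279, adjusted p = 0.0462). The levels overlapped for Sdha, Sdhd and Atp5f1b, and not for Cox5a.

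**Figure D4:**
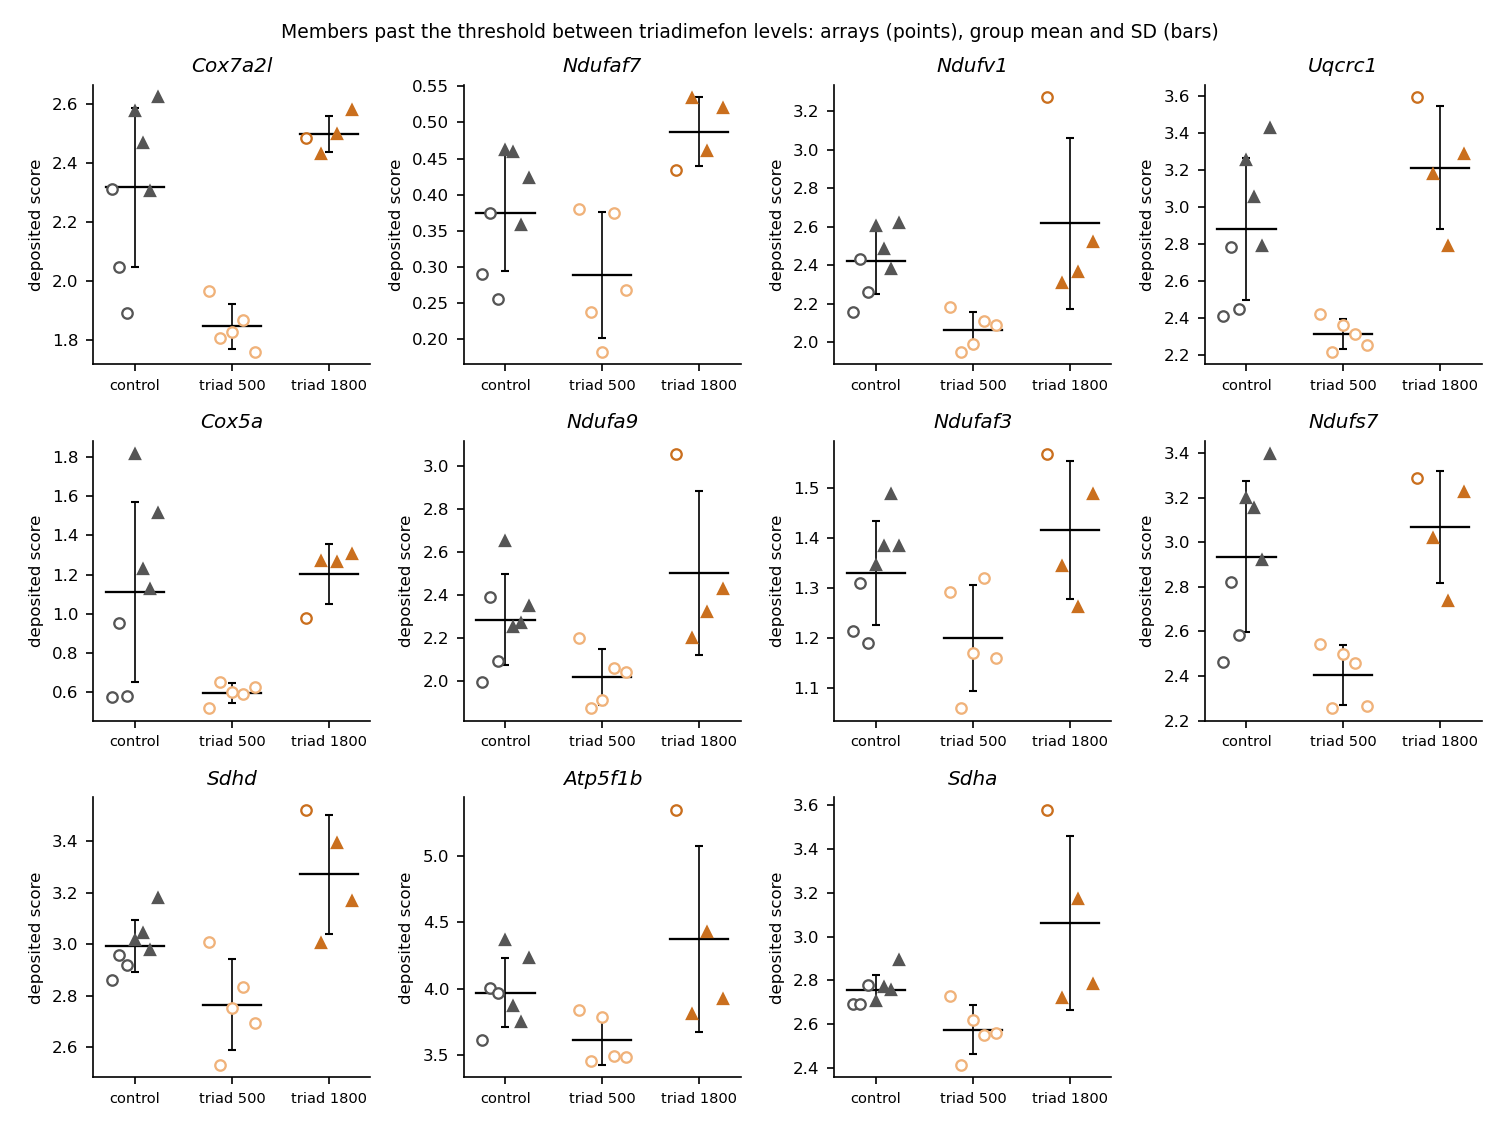
Each panel is 1 of the 11 members past the threshold between the triadimefon levels; points are arrays of the control, triadimefon 500 ppm and 1800 ppm groups, lines and bars the group mean and SD, the y axis the deposited score, and filled triangles the arrays of high GAPDH 3'-5' difference. The open circle at 1800 ppm is replicate 1, at 5.34 for Atp5f1b and 3.27 for Ndufv1; the control arrays reach into or span the 1800 ppm range in most panels.

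These calls depended on the scaling and on single arrays. After quantile normalisation 2 members were past the threshold as higher and 6 as lower, in place of 11 and 0; the same 2 and 6 counts came from dividing each array by its SD. Over all probe sets the shares became 5.35% higher and 4.32% lower. The lower ones after quantile normalisation were Ndufa8 (-0.287 ± 0.0679), Ndufb6 (-0.3 ± 0.085), Ndufb8 (-0.329 ± 0.102), Ndufb10 (-0.258 ± 0.0703) and Ndufv3 (-0.465 ± 0.126) of complex I, and Cox5b (-0.372 ± 0.0909) of complex IV; on the deposited scores these 6 lay between -0.184 and 0.112 with no call. Without triadimefon 1800 ppm replicate 1, 9 members passed (10.1%, beside 20.2% of all probe sets higher and 4.24% lower), and 3 of the 11 were among them, Cox7a2l, Cox5a and Ndufaf7; Atp5f1b was then at 0.439 (adjusted p = 0.203 by limma), Sdha at 0.316 (adjusted p = 0.183) and Uqcrc1 at 0.771 (adjusted p = 0.0521). When the 3'-5' difference was added to the fit as a covariate, 0 of 89 passed, beside 0.283% of all probe sets, and with the animal number series as a block 0 of 89 passed beside 2.46%. In both settings the share called was lower over the whole array as well. The 3'-5' difference was 0.469 to 0.577 at 500 ppm and 1.16 to 1.86 at 1800 ppm, without overlap. Only replicate 1 at 1800 ppm shares the animal number series of the 500 ppm arrays. These fits can therefore hardly separate the level from the added term, and no conclusion is drawn from their loss of calls.

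By complex, the median differences between the triadimefon levels were 0.254 for complex I (32 of 36 above 0), 0.497 for complex II (4 of 4), 0.358 for complex III (7 of 7), 0.0622 for complex IV (12 of 17) and 0.367 for complex V (15 of 15). The complex IV median includes Cox4i2, Cox6a2, Cox6b2, Cox6c-ps1, Cox7a1, Cox7b2 and Cox8b, whose mean scores were -0.278 to 0.030. It is therefore not read as a smaller difference in that complex. After quantile normalisation the 5 complex medians, in the same order, were -0.109, 0.0237, -0.0672, -0.0452 and -0.126. The direction of complexes I, III, IV and V thus turned with the scaling, and complex II kept its sign only at 0.0237. In that setting the complex II means at 1800 ppm were 3.05, 2.70, 2.97 and 2.79 in replicates 1 to 4. At 500 ppm they ran from 2.77 to 2.93, so replicate 2 lay below them and replicate 4 among them. With the 3'-5' covariate, in which the levels do not overlap, complex I was at -0.265 and complex II at 0.244. No conclusion is drawn from these 2 values. The 13 members whose ranges were apart without a call included Ndufb5 (0.801, adjusted p = 0.081 by limma), the ATP synthase c subunit Atp5mc3 (0.766, adjusted p = 0.11), and Ndufs3, a core subunit of complex I (0.375, adjusted p = 0.0519).

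Triadimefon 1800 ppm replicate 1 was at either extreme for many members. It held the highest score of 9 members: the catalytic ATP synthase subunits Atp5f1a and Atp5f1b, Sdhb and Sdhc, Ndufv1 and Ndufa9, Ndufaf3, and the near-zero isoforms Cox6a2 and Cox8b. It held the lowest score of 26: in complex I Ndufa2, Ndufa3, Ndufa4, Ndufa5, Ndufa6, Ndufa12, Ndufb1, Ndufb2, Ndufb3, Ndufb4 and Ndufv2, in complexes III and IV Uqcrq, Cox6c, Cox7b and Cox7c, in complex V Atp5f1e, Atp5me, Atp5mf, Atp5mg, Atp5mk, Atp5mpl and Atp5pf, and 4 assembly factors. Within the ATP synthase, Atp5f1a scored 4.94 on this array and 3.13, 4.01 and 3.26 on replicates 2 to 4, while Atp5f1e, the small ε subunit of its central stalk, scored 2.37 and then 4.09, 3.16 and 4.06. After quantile normalisation it was lowest for 47 members and highest for 7. This array carries an animal number below 3000, unlike the other 3 of its group, and its 3'-5' difference of 1.17 came mainly from β-actin, its GAPDH difference being 0.729.

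Complex II stood apart from the mean of the other complexes on that array, a mean that averages the high and low members just named. The mean of its 4 members minus the mean of the members of complexes I, III, IV and V was 1.45 in triadimefon 1800 ppm replicate 1 and 0.855 in replicate 3, but 0.217 and 0.286 in replicates 2 and 4. On the other 28 arrays it ran from 0.124 to 0.63. The group values were 0.362 ± 0.181 (SD, n = 7) in controls, 0.373 ± 0.175 (n = 5) and 0.508 ± 0.116 (n = 4) for myclobutanil, 0.454 ± 0.203 (n = 3) and 0.46 ± 0.126 (n = 4) for propiconazole, and 0.505 ± 0.129 (n = 5) and 0.702 ± 0.575 (n = 4) for triadimefon. In the comparison of triadimefon 1800 ppm with control all 4 genes lay above 0, Sdha at 0.307 ± 0.169, Sdhb at 0.277 ± 0.156, Sdhc at 0.297 ± 0.187 and Sdhd at 0.277 ± 0.17, with adjusted p of 0.555, 0.572, 0.633 and 0.619 by limma. The complex median was 0.287 with all arrays and 0.115 without replicate 1. Within the animals numbered above 3000, 3 controls and 3 treated, it was 0.103, beside -0.117 for complex I.

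**Figure D5:**
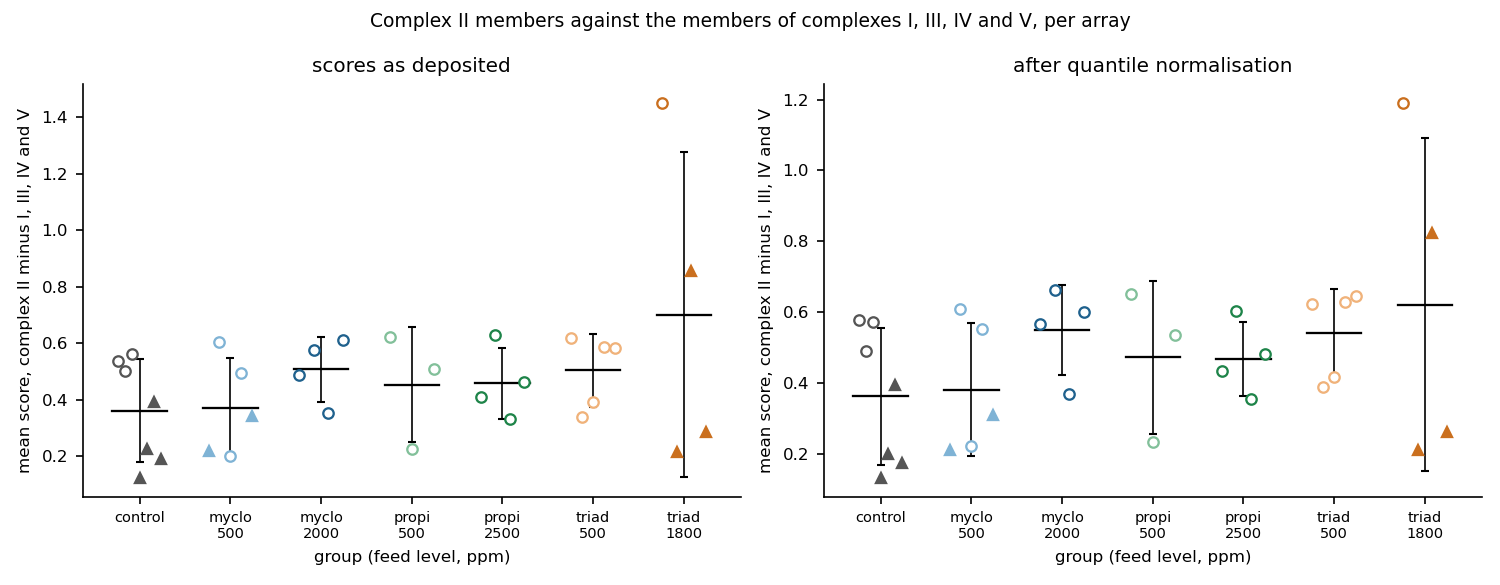
Per array (points), the mean score of the 4 complex II members minus that of the members of complexes I, III, IV and V, as deposited (left) and after quantile normalisation (right), by group; lines and bars are the group mean and SD, and filled triangles the arrays of high GAPDH 3'-5' difference. Triadimefon 1800 ppm replicates 1 and 3 stand at 1.45 and 0.855 on the left and 1.19 and 0.823 on the right, above the other arrays.

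At 500 ppm, the 1 level the 3 compounds share, 3 pairs of compounds were compared. By limma 0 of 89 members passed in any pair, and 0% of all probe sets did in each. Myclobutanil against propiconazole gave no member with an unadjusted p under 0.05 (4.29% of probe sets); the smallest p was that of Cox7b2, 0.216 with a 95% interval of -0.0186 to 0.45 (adjusted p = 0.855 by limma). Myclobutanil against triadimefon gave 25 members at that unadjusted p (28.1%, beside 19.1%). The median was 0.354, with 85 of 89 above 0 (76.3% of all probe sets were). Ndufa1, a small membrane subunit of complex I, differed by 0.761 (0.154 to 1.37, adjusted p = 0.239 by limma) and Ndufb7 by 0.848 (0.152 to 1.54, adjusted p = 0.24). Propiconazole against triadimefon gave none (2.49% of probe sets) and a median of 0.0918. The 1 member with ranges apart in that pair was Ndufs4, at 1.114, 1.13 and 1.097 for propiconazole and 0.959 to 1.08 for triadimefon (4.02% of probe sets lay so). The intervals are wide, and they do not show that the compounds act alike.

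Some subunits come in forms that differ by tissue, and their probe sets are given here each on its own. Cox4i1, Cox6a1, Cox6b1 and Cox8a, the widely expressed forms of complex IV subunits, scored 3.08 to 4.81, 2.31 to 3.9, 2.37 to 4.13 and 2.60 to 5.05 over the 32 arrays. Their lung, muscle and testis counterparts Cox4i2, Cox6a2, Cox6b2 and Cox8b stayed at -0.158 to 0.113, -0.126 to 0.0707, -0.301 to -0.00424 and -0.334 to -0.179. Cox7a1, the heart and muscle form, lay between -0.16 and 0.148, and Cox7b2 between -0.232 and 0.363. Ndufa4, now counted as a complex IV subunit although its name places it in complex I, scored 2.16 to 4.91, and its hypoxia-linked relative Ndufa4l2 -0.0682 to 0.0878. Of the 89 members, 9 had a mean score under 0.15, and none of the forms named here passed the test in any comparison. Cox4i2 was -0.0456 ± 0.043 (SD, n = 7) in controls and -0.12 ± 0.0324 (n = 5) at triadimefon 500 ppm, its lowest group. The several-symbol probe set that holds Cox7a2, the liver form of that subunit, differed by 0.324 ± 0.318 between the triadimefon levels (adjusted p = 0.444 by limma).

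Some members were named by a rule on the mean score within a complex, which says nothing of expression between genes. Of these, Ndufb9 and Atp5mc3 had lower means at myclobutanil 2000 ppm than in controls, and Uqcrc2 did not. Ndufb9 was 3.64 ± 0.379 (SD, n = 7) in controls, 3.13 ± 0.257 (n = 4) at myclobutanil 2000 ppm and 3.74 ± 0.0421 (n = 4) at triadimefon 1800 ppm. Atp5mc3, which forms the proton-driven ring, was 4.12 ± 0.472, 3.51 ± 0.279 and 4.33 ± 0.209 in the same groups. Uqcrc2, the other core protein of complex III, was nearly level, at 2.73 ± 0.107, 2.76 ± 0.258 and 2.85 ± 0.312, and none of these differences from control passed the test.

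Other genes of the pathway were counted by list. Against control none of these genes passed by limma in any of the 6 comparisons. Between the triadimefon levels, 10 of 24 measured complex I and IV assembly genes were higher and 1, Taco1, lower; Cox15, needed to make haem for complex IV, was at 0.324 ± 0.0754 (adjusted p = 0.00667 by limma), Ecsit at 0.273 ± 0.0674 and Timmdc1 at 0.584 ± 0.151. Assembly genes of complexes II, III and V were higher in 4 of 9, Atpaf2, Bcs1l, Uqcc1 and Uqcc3. The count was 8 of 15 for electron carriers and coenzyme Q synthesis, led by Coq9 (0.497 ± 0.119) and Coq8a (1.01 ± 0.29). Cyc1, the haem subunit of complex III whose name the rule does not catch, was higher by 0.556 ± 0.187 (adjusted p = 0.0329). Cytochrome c itself was not among the measured genes. These counts stand beside 22.3% of all probe sets called higher.

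For transport across the inner membrane, 2 of 11 genes were higher, the phosphate carrier Slc25a3 (0.604 ± 0.211) and the transhydrogenase Nnt (0.529 ± 0.194); Atp5if1, the inhibitor of the ATP synthase, was at 0.346 ± 0.193 (adjusted p = 0.173 by limma). Of 15 tricarboxylic acid cycle genes 5 were higher, Idh2 (0.848 ± 0.195), Dlst (0.509 ± 0.119), Ogdh (0.354 ± 0.1), Idh3b and Mdh2. Among 18 regulators of mitochondrial biogenesis, Polg (0.402 ± 0.135) and Ppargc1b (0.166 ± 0.0559) were higher. The factors best known for driving these subunits did not pass on the deposited scores of all arrays. Nrf1 was at -0.12 ± 0.0476 (adjusted p = 0.0629 by limma), Gabpa at 0.0729 ± 0.0901 (0.55), Ppargc1a at 0.1 ± 0.0693 (0.272), Esrra at 0.0716 ± 0.0535 (0.31) and Tfam at 0.032 ± 0.114 (0.847). After quantile normalisation the counts higher and lower were 2 and 1 for complex I and IV assembly, 1 and 0 for the other assembly genes, 2 and 1 for carriers, 0 and 0 for transport, 3 and 2 for the cycle and 0 and 2 for the regulators, so the split of calls moved with the scaling. The 2 regulators lower after quantile normalisation were Nrf1 and Ssbp1. Nrf1 was also called lower after division by array SD and without triadimefon 1800 ppm replicate 1. Taco1, Bcs1l, Idh3b, Mdh2 and Ssbp1 were named after their values were seen.

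Markers of other cell types moved in the same comparison. Of 10 Kupffer cell markers 6 were higher at 1800 than at 500 ppm, led by Csf1r (0.504 ± 0.0989, adjusted p = 0.00274 by limma), and the list's array mean was 1.43 to 1.87 at 1800 ppm and 0.908 to 1.49 at 500 ppm, which overlap. Higher markers also numbered 3 of 6 for endothelium (Lyve1, Eng, Stab2), 3 of 8 for stellate cells (Col1a2, Col3a1, Reln), 2 of 5 for biliary cells (Epcam, Cftr), 2 of 11 for hepatocytes (Hnf4a, Asgr1), 1 of 6 for blood (Cd3e) and 1 of 8 for striated muscle (Acta1), and 0 for adipocytes and testis germ cells. Their part in the members' differences was not tested. Hepatocyte markers had array means of 4.11 to 5.25 at 1800 ppm and 3.66 to 4.07 at 500 ppm, so the ranges were apart. These marker counts stand beside 22.3% of all probe sets higher. After quantile normalisation the higher markers numbered 4 for Kupffer cells, 1 each for endothelium, stellate cells, biliary cells, hepatocytes and blood, and 0 for striated muscle, and the hepatocyte list's median went from 0.661 to -0.055. With the 3'-5' covariate, in which the triadimefon levels do not overlap, 0 markers of any list passed. Against control, only Epcam (0.72 ± 0.116) and Col1a2 (0.313 ± 0.0782) of all markers passed, both at triadimefon 1800 ppm.

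The start-site sequences of the members share features the name rule did not use. RefSeq windows of 300 bases, 250 before and 50 after the start, were matched for 81 of the 89 members (assembly GRCr8); the arrays name no build. On either strand 3 motifs were searched: a core of the NRF1 site, GCGCANGCG, a core bound by ETS factors such as GABPA, CCGGAAG, and a core of the YY1 site, AAGATGGC. NRF1 letters were found in 21 of 81 member windows (25.9%), in 10.7% of the 13193 windows of genes on the array and in 5.8% of all 33469. ETS letters were in 25 (30.9%, beside 14.2% and 8.75%) and YY1 letters in 17 (21%, beside 4.48% and 3.17%). At least 1 motif was in 50 member windows (61.7%, beside 25.4% and 15.7%). By complex these were 20 of 34 in complex I, 4 of 4 in complex II, 4 of 6 in complex III, 4 of 13 in complex IV and 10 of 14 in complex V. The complex IV windows include those of the near-zero isoforms Cox6a2, Cox6b2, Cox7a1, Cox7b2 and Cox8b, which held no match. Of the 11 members higher at triadimefon 1800 than 500 ppm, 6 had a match. A match is a description of letters, not a site shown to be bound, and the motifs can overlap each other.

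The windows of 4 members from those 11 are shown, the 2 that kept their call after quantile normalisation and the 2 of complex II, from RefSeq on GRCr8, 5' to 3' on the gene's strand, with matches in capitals. Cox7a2l (chr6:16936324-16936623, plus strand) has 1 NRF1 match; Uqcrc1 (chr8:118467973-118468272, plus strand) has 2 NRF1 matches and 1 YY1 match; Sdha (chr1:30764303-30764602, plus strand) has 3 NRF1 matches; Sdhd (chr8:59850592-59850891, minus strand) has 2 ETS matches.
Cox7a2l: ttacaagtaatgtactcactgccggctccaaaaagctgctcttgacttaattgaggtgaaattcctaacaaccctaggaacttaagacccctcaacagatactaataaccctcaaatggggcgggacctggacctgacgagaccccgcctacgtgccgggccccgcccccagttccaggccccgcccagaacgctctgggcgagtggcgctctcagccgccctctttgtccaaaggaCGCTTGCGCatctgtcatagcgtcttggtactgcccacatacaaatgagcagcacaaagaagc
Uqcrc1: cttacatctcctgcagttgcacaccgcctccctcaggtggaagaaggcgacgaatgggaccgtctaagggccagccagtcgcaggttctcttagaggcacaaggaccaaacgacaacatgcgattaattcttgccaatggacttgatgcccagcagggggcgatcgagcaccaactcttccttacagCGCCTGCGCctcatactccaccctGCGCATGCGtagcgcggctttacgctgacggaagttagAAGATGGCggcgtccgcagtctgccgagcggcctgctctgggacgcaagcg
Sdha: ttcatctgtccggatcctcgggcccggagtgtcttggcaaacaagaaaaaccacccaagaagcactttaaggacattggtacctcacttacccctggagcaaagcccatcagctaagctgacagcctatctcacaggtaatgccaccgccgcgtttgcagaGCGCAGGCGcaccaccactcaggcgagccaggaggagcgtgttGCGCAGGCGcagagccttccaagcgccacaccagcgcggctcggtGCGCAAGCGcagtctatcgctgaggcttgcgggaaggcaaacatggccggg
Sdhd: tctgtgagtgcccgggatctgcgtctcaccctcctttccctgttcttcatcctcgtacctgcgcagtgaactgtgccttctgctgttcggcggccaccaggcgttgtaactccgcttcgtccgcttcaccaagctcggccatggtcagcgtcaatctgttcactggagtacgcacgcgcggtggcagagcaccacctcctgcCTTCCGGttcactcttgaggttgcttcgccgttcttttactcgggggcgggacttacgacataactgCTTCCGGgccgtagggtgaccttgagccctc
In Uqcrc1 the YY1 letters begin at base 250 of the window, next to the annotated start, and in Sdhd both matches read as the reverse complement of the ETS letters. The windows of Ndufv1, Cox5a, Atp5f1b, Ndufaf3 and Ndufaf7, also higher in the same comparison, hold none of the 3 motifs.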

How the data were processed

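Liver RNA of 32 animals was measured on an Affymetrix rat expression array. The values are the authors' deposited scores per probe set; no source used here states their scale, log base, centring or normalisation. The test planned for log2 values was therefore run on the scores unchanged. The 3 further columns, of the arrays listed without values, were not used. The array number limits precision. Each p-value sets a group difference against a spread between arrays that all groups share in the fit. That spread holds differences between arrays as well as between animals, whose litters are not known.

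All 7 groups, taken from the sample titles, were fitted together with limma 3.58.1 (R 4.3.3; lmFit, contrasts, eBayes) over 31042 probe sets after 57 control probe sets were left out, with no filter, for 12 comparisons; tests were two-sided, with Benjamini-Hochberg adjustment within each comparison and a threshold of 0.05. Genes were named through the platform annotation, in which 20826 probe sets have 1 symbol and 436 several; all 89 members matched RefSeq by Entrez identifier. Members and lists were chosen with earlier results of these data known. Named genes were every member past the threshold, the 3 of smallest p in each comparison with control, the highest and lowest mean scores in each complex (a naming rule only), preset isoforms and pathway genes, and up to 3 called genes of each other list by smallest p; others were named after their values were seen. The script was tested on simulated data. Alternatives covered scaling, filters, probe set choice, blocks, a 3'-5' covariate and left-out arrays. Dividing by array SD, leaving out the 2 doubted arrays and using only arrays of high 3'-5' difference were chosen after seeing the data.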

Additional observations from a re-analysis of the deposited data

Results flagged for a closer look

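Single arrays stood apart from the rest of their group in 6 of 204 tests by Dixon's criterion, where chance alone gives about 1 in 20. Cox5a in triadimefon 1800 ppm replicate 1 was low, at 0.976 against 1.26 to 1.30 in the other arrays of its group, and Cox8b on the same array was high, at -0.179 against -0.278 to -0.270. Cox7b2 in triadimefon 1800 ppm replicate 2 was high, at 0.363 against -0.113 to -0.0983. In myclobutanil 500 ppm replicate 1, Cox4i1 was high at 4.81, against 3.28 to 3.66. Propiconazole 2500 ppm replicate 2 had a low Uqcr11, 2.27 against 2.53 to 2.56, and a high Cox6a2, 0.05 against -0.0313 to -0.0215.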

How the results depend on the processing

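The counts of members past the threshold moved as follows, each with the share of all probe sets called in the same setting in brackets. At triadimefon 1800 minus 500 ppm (11), fitting only the 2 groups gave 23 (25.4%), the 3'-5' covariate 0 (0.283%), the animal number series as a block 0 (2.46%), leaving out the arrays of high 3'-5' difference 42 (23.5%) and leaving out the 2 doubted arrays 33 (31.5%); leaving out 1 replicate gave 5 to 12 (14.3% to 24.4%), with 5 without triadimefon 500 ppm replicate 2 or 3, 6 without its replicate 5 or without triadimefon 1800 ppm replicate 4, and 7 without triadimefon 500 ppm replicate 4. At triadimefon 1800 ppm minus control (0), quantile normalisation gave 2 (1.39%), the 3'-5' covariate 1 (1.95%), only animals below 3000 6 (7.93%), and leaving out the arrays of high 3'-5' difference 36 (17.7%), with 0 to 0 for single replicates. The last 2 settings leave triadimefon 1800 ppm with 1 array, replicate 1, which is assumed to vary like the other groups. Leaving out the arrays of high 3'-5' difference keeps only that array between the triadimefon levels as well. Arrays were left out by a GAPDH difference above 0.9 alone, not by the 3'-5' difference used as covariate. By that covariate the kept replicate 1 stood at 1.17 and the left-out replicate 3 at 1.16. An array of high 3'-5' difference thus remained, and no conclusion is drawn from the counts of this setting. At myclobutanil 2000 ppm minus control (0), leaving out the 2 doubted arrays gave 11 (6.31%) and single replicates 0 to 4 (4 without control replicate 3, 9.71%). At triadimefon 500 ppm minus control (0), the same gave 22 (13.1%) and 0 to 6 (3 without control replicate 1, 12.1%, and 6 without control replicate 3, 14.4%). Ndufaf3 between the triadimefon levels reversed to -0.00809 after quantile normalisation and -0.00991 after division by array SD, and Ndufb7 at triadimefon 500 ppm minus control, with no call, went to 0.0418 with the 3'-5' covariate. The causes were not tested. The triadimefon levels do not overlap in the 3'-5' difference and share an animal number series through 1 array at 1800 ppm only. No conclusion is drawn from the counts of 0 between them in those 2 fits. Replicate numbers do not pair the animals: of 76 same-numbered pairs 24 had a correlation of deviations over 0.1, and 4 of 32 arrays were best matched by their own number. With the replicate block the counts were 15 (27%) at triadimefon 1800 minus 500 ppm and 0 in the other 11 comparisons.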
